A study of Homo sapiens with 10 samples.

Results

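NRAS, HRAS, RRAS, RRAS2 and MRAS are 5 genes of the RAS family of small GTPases, and they were followed through every library of a study of RD cells. Members were taken by symbol from the deposited read counts, which list 23228 genes. All 5 were found, and all 5 were among the 14761 genes that had enough counts to be tested. RD is an established human rhabdomyosarcoma line, from a soft tissue tumour that resembles immature muscle, and it is known to carry an activating mutation of NRAS. All groups are this 1 line in RPMI medium with serum, so nothing here separates the line from rhabdomyosarcoma at large.

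RAS proteins bind GTP in their active state and GDP at rest. Exchange factors (GEFs) load GTP, and GTPase-activating proteins (GAPs) speed its hydrolysis. NRAS and HRAS are classical RAS proteins that switch on the RAF, MEK and ERK kinases and other effectors from the inner face of the plasma membrane. RRAS and RRAS2 (also called TC21) form the R-RAS branch, of which RRAS is known for its part in integrin-mediated adhesion and RRAS2 for transforming activity of its own. MRAS is expressed in muscle and many other tissues, and with SHOC2 and the phosphatase PP1 it forms a complex that removes an inhibitory phosphate from RAF.

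There were 5 groups of 2 libraries each. NRAS siRNA 1, NRAS siRNA 2 and the nonspecific siRNA, which the labels also call scrambled, were each transfected at 10 nM with collection at 48 h. SCH772984, an inhibitor of the ERK kinases, was given at 300 nM and DMSO, its vehicle, alone, both with collection at 24 h. The labels mention no transfection for the drug groups, which differ from the siRNA groups in time as well. The comparisons address which RAS genes respond to loss of NRAS transcript and which to loss of ERK activity. RNA was measured, and no protein or GTP-bound RAS. Nothing in the labels says whether the 2 libraries of a group were separate cultures, and p-values therefore cover the spread of libraries, perhaps only technical spread. In bulk RNA, fewer cells of a type and less RNA per cell cannot be told apart.

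Libraries held 23224063 to 30768970 counts in genes. Of the 9 muscle lineage markers looked up, MYOD1, the factor by which rhabdomyosarcoma is usually recognised, had 0 to 5 counts a library, MYOG 0 to 3 and MYF5 0, so these defining markers were near absent from the counts, against the label, and the reason was not tested. PAX7 had 1 to 6 counts, CHRNA1 1 to 20 and TMEM8C 0 to 1, which is low as well. DES had 520 to 928 counts, PAX3 258 to 393 and MEF2C 781 to 1374, so the sum of the muscle markers is almost wholly theirs. The muscle markers together summed to 74.3 and 63.5 CPM (counts scaled to library size) with siRNA 1, 84.4 and 71.9 with siRNA 2 and 74.0 and 62.2 with the nonspecific siRNA, and to 94.1 and 90.9 with SCH772984 and 82.6 and 65.5 with DMSO. Of 10 markers of other cell types, ALB, HBB, PECAM1, PTPRC, CDH1 and CDH5 stayed at or under 12 counts. EPCAM had 39 to 77, CD68 50 to 127, KRT8 247 to 803 and KRT18 3017 to 9825. Those 10 markers were mostly KRT18, at 106 to 335 CPM over the libraries. They summed to 120 and 198 CPM with siRNA 1, 141 and 217 with siRNA 2 and 196 and 220 with the nonspecific siRNA. With SCH772984 they summed to 229 and 368, and with DMSO to 238 and 354. The second library had the higher sum in every group. What part the markers have in the results was not tested.

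The 3' ends of the coding sequences show where these paralogs part, and they also bear on whether reads can tell the genes apart. They are given here from the GENCODE release 29 transcripts, as the last 60 coding bases. Capitals mark the last 4 codons before the stop codon, which encode the CAAX box, the motif whose cysteine receives the lipid that holds RAS at membranes.
NRAS: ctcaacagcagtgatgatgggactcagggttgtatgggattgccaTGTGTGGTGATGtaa
HRAS: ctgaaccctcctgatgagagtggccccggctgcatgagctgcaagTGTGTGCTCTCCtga
RRAS: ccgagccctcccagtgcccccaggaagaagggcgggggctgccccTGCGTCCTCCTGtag
RRAS2: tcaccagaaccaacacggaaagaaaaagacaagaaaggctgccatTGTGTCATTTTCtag
MRAS: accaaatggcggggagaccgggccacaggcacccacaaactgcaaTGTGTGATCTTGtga

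All 5 boxes open with a cysteine codon. In the 15 codons before it, HRAS has 2 further cysteine codons, NRAS, RRAS and RRAS2 have 1 each, and MRAS has 0. HRAS and NRAS are known to be palmitoylated at such cysteines. Lysine codons in the same stretch, which add to a basic tail, number 4 in RRAS2, 2 in RRAS, 2 in MRAS, 1 in HRAS and 0 in NRAS. Arginine codons, which are basic too, were not counted, so these numbers do not rank the tails by charge. Over the whole coding sequence NRAS and HRAS were identical at 73.0% of aligned bases, and the other pairs at 58.9 to 65.7%. The longest run of bases that the NRAS transcript shares with any of the other 4 was 14 bases, and no stretch of 19 bases, about the length of an siRNA guide's target, was shared. The siRNA sequences themselves were not used here, so partial matches of the siRNAs to the other members were not tested. The longest run shared by any pair was 23 bases, from coding base 136 of RRAS and coding base 91 of RRAS2.
RRAS and RRAS2: accatccagttcatccagtccta
No pair of these transcripts shared a stretch of 50 bases, so a uniquely aligned read of that length belongs to 1 gene of the family.

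NRAS was the most counted of the 5 in the control libraries, and it fell with both siRNAs. It had 52.4 and 52.2 CPM with siRNA 1 and 51.0 and 48.0 CPM with siRNA 2, against 220 and 272 CPM with the nonspecific siRNA. All 4 knockdown libraries lay far below both control libraries, and the knockdown libraries differed less among themselves than the control libraries did. The log2 fold change was -2.23 with siRNA 1 (95% interval -2.51 to -1.96, SE 0.12, adjusted p = 4.77e-05) and -2.31 with siRNA 2 (SE 0.12, adjusted p = 5.15e-05), both from the edgeR quasi-likelihood test, adjusted by Benjamini-Hochberg over all tested genes, as are all further adjusted p-values. The targeted gene thus fits the labels of all 4 knockdown libraries. The siRNAs did not differ from each other beyond the spread (log2 difference 0.08, SE 0.12, adjusted p = 0.963). In drug-treated cells NRAS had 235 and 279 CPM with SCH772984, against 269 and 282 CPM with DMSO. These libraries overlapped, and the log2 fold change was -0.10 (95% interval -0.36 to 0.16, adjusted p = 0.555). Between the knockdown response, taken as the mean of both siRNAs, and the drug response, NRAS differed by -2.17 on the log2 scale (SE 0.15, adjusted p = 0.000122).

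**Figure D1:**
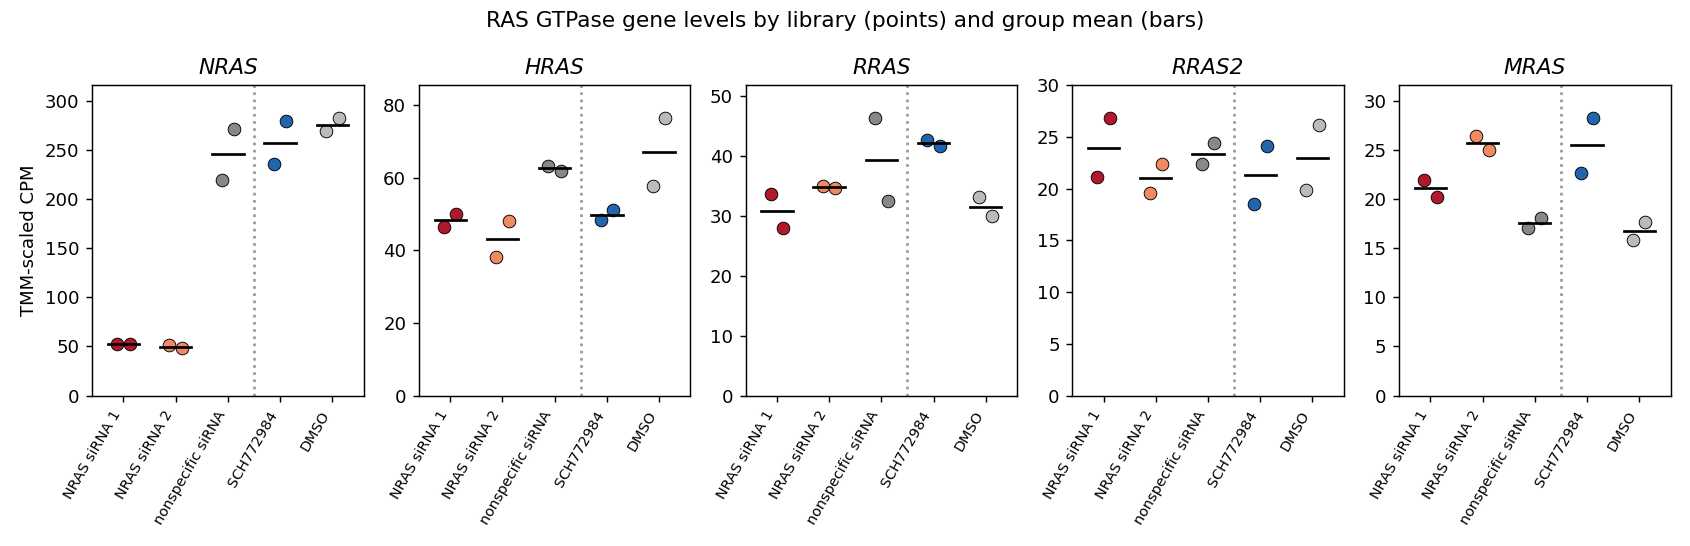
Levels of the 5 RAS genes in each library in CPM with TMM scaling; points are libraries, bars are group means of 2 libraries, each panel has its own axis from 0, and the dotted line parts the siRNA groups from the drug groups. NRAS stands at 48.0 to 52.4 CPM in the 4 knockdown libraries and at 220 to 282 CPM in the other 6, whereas no other member shows a drop of that size.

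Outside the target, few members passed the threshold. With siRNA 1, NRAS alone passed the threshold among the 5 genes, where 2.07% of all tested genes did. With siRNA 2, NRAS fell and MRAS rose, 2 of 5, where 6.43% of all tested genes passed. For the mean of both siRNAs 1 of 5 passed, and it was lower, where 7.95% of all tested genes passed, 2.97% higher and 4.99% lower. With SCH772984, HRAS fell and MRAS rose, 2 of 5, where 28.0% of all tested genes passed, 13.2% higher and 14.8% lower. Over 5 genes, 2 calls are close to what that share gives. NRAS is the target of the siRNAs, so its place in the siRNA counts follows from the design and says nothing about the family. Both siRNA comparisons share the same 2 nonspecific siRNA libraries, so their values are not independent. For the mean of both siRNAs, treated and control libraries did not overlap for the target NRAS and for HRAS and MRAS, as was so for 35.4% of all tested genes. For SCH772984 they did not overlap for HRAS, RRAS and MRAS, as was so for 66.8% of all tested genes.

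HRAS is the closest relative of NRAS among the members. It had 46.5 and 50.1 CPM with siRNA 1 and 38.2 and 48.1 CPM with siRNA 2, against 63.2 and 61.8 CPM with the nonspecific siRNA. All 4 knockdown libraries were below both controls. The log2 difference was -0.37 for siRNA 1 (95% interval -0.70 to -0.05, SE 0.15, adjusted p = 0.218) and -0.54 for siRNA 2 (95% interval -0.86 to -0.21, SE 0.15, adjusted p = 0.0562). Neither passed the threshold, nor did the mean of both, which DESeq2 did call (adjusted p = 0.0225). The value for the mean ranged from -0.54 to -0.37 when any 1 library was left out, and adjusted p from 0.0275 to 0.193. It passed without the second siRNA 2 library (-0.54), without the first DMSO library (-0.45) and without the second DMSO library (-0.43).

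In drug-treated cells HRAS had 48.4 and 51.1 CPM with SCH772984, against 57.8 and 76.3 CPM with DMSO. The treated libraries were below both controls, and the DMSO libraries differed more from each other than any other pair did for this gene. HRAS was at 74.1% of its DMSO level (log2 fold change -0.43, 95% interval -0.76 to -0.11, adjusted p = 0.0497). This call rests on single libraries. Without the second DMSO library the log2 fold change was -0.19 (adjusted p = 0.438), and without the first and the second SCH772984 library it was -0.39 (adjusted p = 0.218) and -0.47 (adjusted p = 0.116). It was also lost, at values of -0.43 to -0.41, without either siRNA 1 library or either nonspecific siRNA library. The knockdown and drug responses of HRAS differed by -0.02 (95% interval -0.45 to 0.41, adjusted p = 0.963).

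HRAS lies beside genes that have counts of their own. LRRC56 overlaps HRAS in the RefSeq annotation and averaged 6.48 CPM over the 10 libraries, with log2 differences of -0.48 (adjusted p = 0.242) with the siRNAs and 0.43 (adjusted p = 0.274) with SCH772984. With the strand setting of the counting unknown here, reads from the overlap cannot be told apart. RNH1, a ribonuclease inhibitor gene and the next gene on the other side, fell with the siRNAs by 0.62 on the log2 scale (SE 0.12, adjusted p = 0.0195). That call was lost without either nonspecific siRNA library (-0.58 without the first, -0.64 without the second) and without the first siRNA 1 library (-0.59). With SCH772984 RNH1 differed by 0.36 (adjusted p = 0.0897).

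RRAS had 33.5 and 27.9 CPM with siRNA 1 and 35.0 and 34.6 CPM with siRNA 2, against 46.2 and 32.3 CPM with the nonspecific siRNA. These groups overlapped, since the second control library lay among the knockdown libraries. The log2 difference for the mean of both siRNAs was -0.27 (95% interval -0.57 to 0.04, adjusted p = 0.250), and without the first nonspecific siRNA library it was 0.03. With SCH772984 RRAS had 42.6 and 41.5 CPM, against 33.0 and 29.9 CPM with DMSO. Both treated libraries were above both controls. The log2 difference was 0.42 (95% interval 0.06 to 0.77, SE 0.16, adjusted p = 0.0777), which missed the threshold. The difference between the knockdown and drug responses was -0.68 (95% interval -1.15 to -0.21, adjusted p = 0.0801), and this was not called either. The genes on both sides of RRAS were called higher with SCH772984, as were 13.2% of all tested genes. PRR12 rose by 0.70 (SE 0.14, adjusted p = 0.00514), and SCAF1, which encodes an SR-related splicing factor, by 0.43 (SE 0.13, adjusted p = 0.0372). Without the first SCH772984 library they stood at 0.50 (adjusted p = 0.0536) and 0.26 (adjusted p = 0.286), and SCAF1 was also not called without the first (0.38) or the second DMSO library (0.51).

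RRAS2 was not called in either comparison. It had 21.1 and 26.8 CPM with siRNA 1 and 19.6 and 22.4 CPM with siRNA 2, against 22.4 and 24.4 CPM with the nonspecific siRNA. With SCH772984 it had 18.5 and 24.1 CPM, against 19.8 and 26.1 CPM with DMSO. The groups overlapped in both comparisons. The log2 difference was -0.06 for the mean of both siRNAs (95% interval -0.41 to 0.29, adjusted p = 0.840) and -0.11 for SCH772984 (95% interval -0.52 to 0.30, adjusted p = 0.689). The SCH772984 interval takes in the HRAS value of the same comparison (-0.43), whereas the siRNA interval ends short of that of HRAS (-0.45).

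MRAS was the 1 member that was higher in all 6 treated libraries than in the controls beside them. It had 22.0 and 20.2 CPM with siRNA 1 and 26.4 and 25.0 CPM with siRNA 2, against 17.1 and 18.1 CPM with the nonspecific siRNA. The siRNA 2 libraries were the higher of the knockdown libraries. The log2 difference was 0.26 for siRNA 1 (95% interval -0.04 to 0.56, adjusted p = 0.354), and for siRNA 2 the fold change was 1.46 (log2 0.55, 95% interval 0.25 to 0.85, adjusted p = 0.0420). The siRNAs were not shown to differ from each other (-0.29, SE 0.13, adjusted p = 0.847). The mean of both siRNAs gave 0.40 (95% interval 0.14 to 0.67, adjusted p = 0.0644), which DESeq2 called (adjusted p = 0.0274). The call for siRNA 2 was lost when any siRNA, nonspecific siRNA or DMSO library was left out, at values of 0.51 to 0.59 and adjusted p of up to 0.307, and it was kept without the first or the second SCH772984 library.

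With SCH772984 MRAS had 22.7 and 28.2 CPM, against 15.8 and 17.6 CPM with DMSO. Both treated libraries were above both controls, and the fold change was 1.52 (log2 0.61, 95% interval 0.30 to 0.91, SE 0.14, adjusted p = 0.00899). The call was lost without the second SCH772984 library (0.44, adjusted p = 0.0698) and without the first DMSO library (0.53, adjusted p = 0.0552). The knockdown and drug responses were not shown to differ (-0.20, 95% interval -0.60 to 0.20, adjusted p = 0.536). ESYT3, the next gene to MRAS, was not called in either comparison, at -0.14 (adjusted p = 0.592) with the siRNAs and -0.15 (adjusted p = 0.547) with SCH772984. The muscle markers, by count almost wholly DES, PAX3 and MEF2C, summed higher in the SCH772984 than in the DMSO libraries, as given above. Their part in the MRAS result was not tested.

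Since MRAS was the member that rose, its promoter is shown from the RefSeq table for GRCh38.p14, plus strand, chr3:138348329-138348628, which runs from 250 bases before the start site to 50 after it. Capitals mark a match to the consensus binding motif of MEF2, the muscle factor family.
MRAS promoter: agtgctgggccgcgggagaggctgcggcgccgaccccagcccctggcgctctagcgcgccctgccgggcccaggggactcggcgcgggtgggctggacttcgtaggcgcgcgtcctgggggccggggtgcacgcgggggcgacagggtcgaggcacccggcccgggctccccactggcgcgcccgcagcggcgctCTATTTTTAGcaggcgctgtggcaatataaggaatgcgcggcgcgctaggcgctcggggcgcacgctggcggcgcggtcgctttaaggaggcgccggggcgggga
The match starts 55 bases before the start site. The motif was chosen after the sequence had been seen and was searched on both strands. It occurs in 201 of 35116 promoter windows of 300 bases (0.572%) and in 1 of 3 windows listed for MRAS. None of CCGGAAGT (ETS), TGANTCA (AP-1), CACGTG (E-box) and TGACGTCA (CRE) was in the MRAS windows. The 1 window listed for NRAS held the ETS motif, found in 4.14% of all windows, and the E-box, found in 7.26%. The 1 window of HRAS and the 4 of RRAS2 held none of the motifs searched. A match describes letters and is not a measured site.

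**Figure D2:**
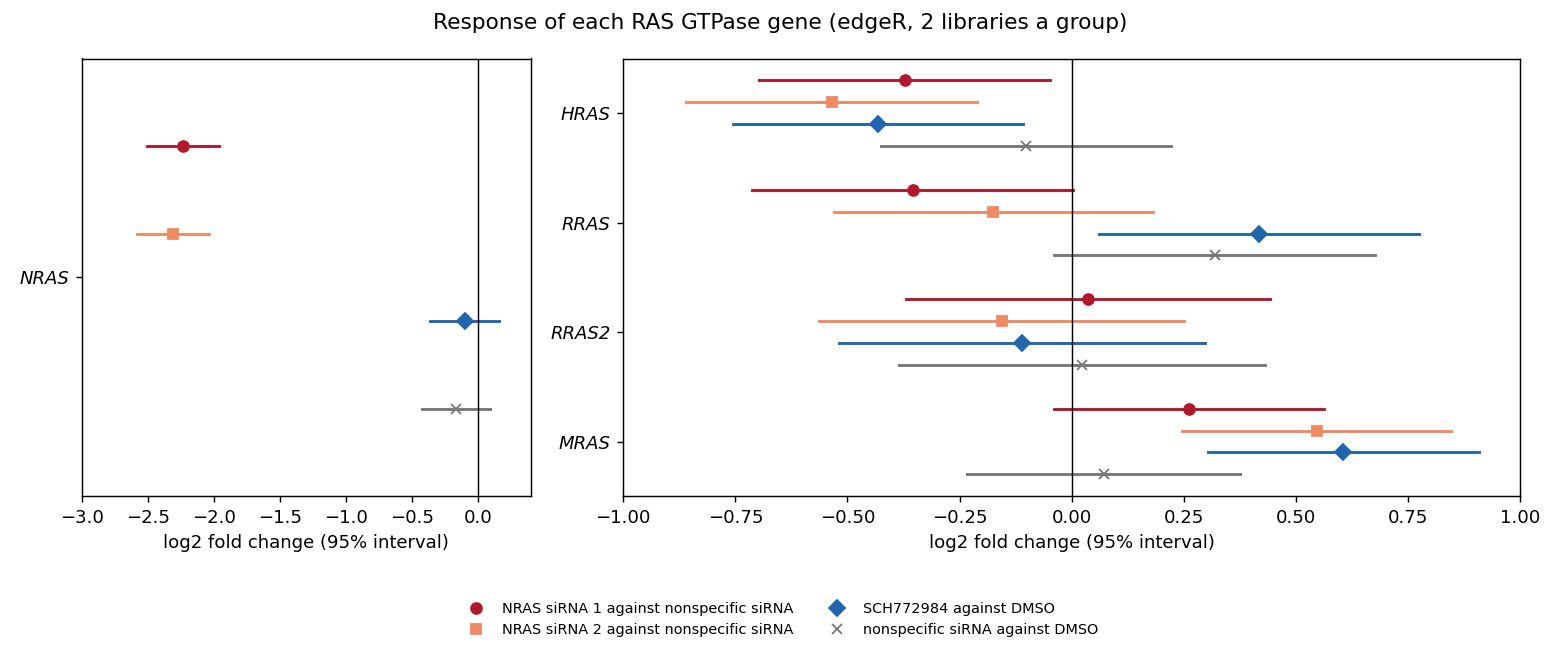
Log2 fold changes of the 5 RAS genes with 95% intervals from the edgeR fit, 2 libraries a group; the left panel has NRAS on a wider axis than the right panel with the other members. The NRAS estimates for siRNA 1 and siRNA 2 lie at -2.23 and -2.31, and all other estimates lie between -0.54 and 0.61.

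As background for these responses, the control groups and the siRNAs were compared among themselves. Between the nonspecific siRNA and DMSO groups, which differ in transfection and time, 0 of 5 genes were called by edgeR, where 0.379% of all tested genes were, and 0 had an unadjusted p under 0.05. The largest difference was RRAS at 0.32 (SE 0.16, adjusted p = 0.500). Between siRNA 1 and siRNA 2, 0 of 5 were called, where 0.427% of all tested genes were, and again 0 had an unadjusted p under 0.05. DESeq2 also called 0 of 5 in both. Between the knockdown and drug responses, edgeR called NRAS alone, where 7.30% of all tested genes were called, and DESeq2 called RRAS as well (adjusted p = 0.0347).

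Levels of different genes can be compared only per length, for which CPM were divided by the length of the principal transcript, 4449 bases for NRAS, 1151 for HRAS, 1044 for RRAS, 1516 for RRAS2 and 4538 for MRAS. In DMSO libraries the order in CPM per kb was NRAS at 62.0 ± 2.11, HRAS at 58.3 ± 11.4, RRAS at 30.2 ± 2.11, RRAS2 at 15.2 ± 2.94 and MRAS at 3.69 ± 0.288 (SD, n = 2 each). The NRAS and HRAS levels did not differ beyond the spread of HRAS, and the later steps of the order were larger than the spreads. With the nonspecific siRNA, NRAS at 55.2 ± 8.28 and HRAS at 54.3 ± 0.840 CPM per kb were again not separated (SD, n = 2 each). With SCH772984, NRAS at 57.8 ± 6.93 stood above HRAS at 43.2 ± 1.66 and RRAS at 40.3 ± 0.745 CPM per kb (SD, n = 2 each).

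After knockdown NRAS stood at 11.7 ± 0.0371 CPM per kb with siRNA 1 and 11.1 ± 0.482 with siRNA 2, against 55.2 ± 8.28 with the nonspecific siRNA (SD, n = 2 each). With this length the order then began with HRAS at 41.9 ± 2.20 and 37.5 ± 6.12 and RRAS at 29.4 ± 3.84 and 33.3 ± 0.246 CPM per kb with siRNA 1 and siRNA 2. HRAS and RRAS overlapped with siRNA 2, where the lower HRAS library was at 33.2 CPM per kb. NRAS came next to last, below RRAS2 at 15.8 ± 2.65 and 13.8 ± 1.27 CPM per kb and above MRAS at 4.64 ± 0.276 and 5.66 ± 0.214. The 5 genes together summed to 104 ± 0.696 CPM per kb with siRNA 1 and 101 ± 6.44 with siRNA 2, against 166 ± 0.874 with the nonspecific siRNA. NRAS made up 11.3 ± 0.112% and 11.0 ± 1.17% of the sum with the siRNAs, against 33.2 ± 5.15% with the nonspecific siRNA. With SCH772984 the sum was 161 ± 11.3, against 169 ± 14.6 CPM per kb with DMSO, and the NRAS share was 35.9 ± 1.78%, against 36.7 ± 1.92%.

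The length model decides parts of this order. With the union of all annotated exons as length, 1854 bases for HRAS, 1160 for RRAS and 3453 for RRAS2, HRAS came to 33.7 CPM per kb with the nonspecific siRNA and 36.2 with DMSO, below NRAS at 55.2 and 62.0. RRAS then stood at 26.5 and HRAS at 26.0 CPM per kb with siRNA 1, where their libraries overlapped. With siRNA 2 RRAS was at 30.0 and HRAS at 23.3, and with SCH772984 RRAS was at 36.3 and HRAS at 26.8. RRAS thus stood above HRAS in both groups. In the controls RRAS was level with HRAS with the nonspecific siRNA, at 33.9 (libraries at 39.9 and 27.9). It was below HRAS with DMSO, at 27.2. After knockdown NRAS also stood above RRAS2, which was at 6.95 with siRNA 1 and 6.08 with siRNA 2. MRAS stayed the lowest in every group with either length, at 2.63 to 5.66 CPM per kb.

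**Figure D3:**
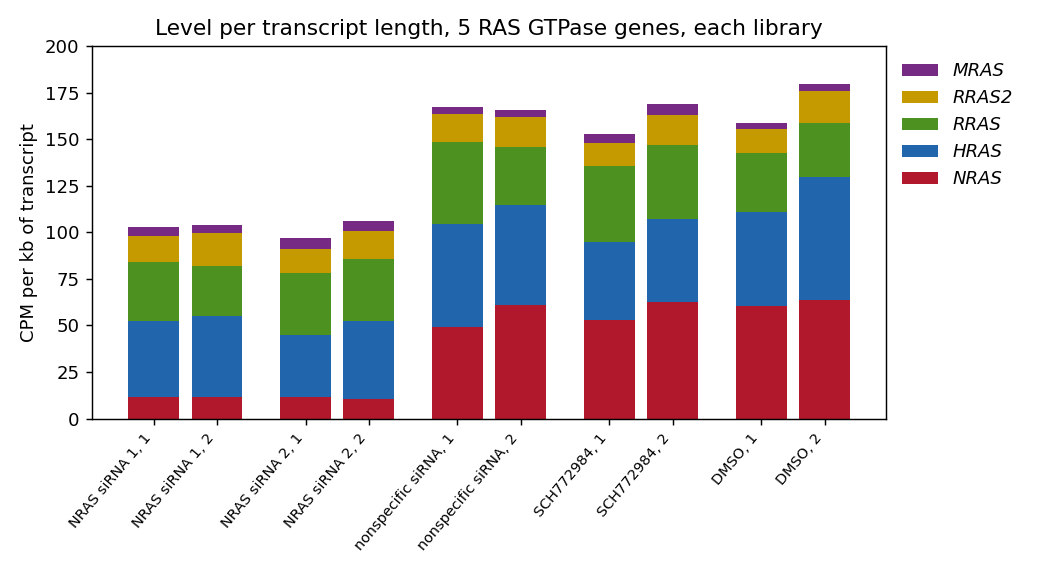
Stacked levels of the 5 RAS genes in each library, in CPM per kb of the principal transcript, with the bar height as their sum. The 4 knockdown libraries reach 96.9 to 106 CPM per kb and the other 6 reach 153 to 180, and the missing height is mostly that of NRAS.

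Across the 10 libraries the genes whose levels ran most like a member's were looked up among 11234 genes of at least 5 CPM, by Pearson's r of log2(CPM + 1), as a description. For NRAS they were C11orf83 (r = 0.961), FZD1 (0.958), a WNT receptor, and TOMM34 (0.957). For HRAS they were MDH2 (0.994), the mitochondrial malate dehydrogenase, HAUS7 (0.981) and SNRPB (0.976), a core spliceosome protein. For RRAS they were BLVRB (0.948) and FARP1 (0.931), and for RRAS2 DDX31 (0.882), TXLNA (0.881) and SELS (0.879). For MRAS they were TCEAL1 (0.962), MAP1A (0.958) and WASF1 (0.953). All these libraries share groups, so r follows the group differences. Among the members themselves HRAS ran with NRAS (r = 0.704, n = 10 libraries) and against MRAS (r = -0.747).

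The regulators and partners of RAS were described from 6 lists of genes, by counts and medians beside those of all tested genes, whose median log2 fold change was -0.01 for the mean of both siRNAs and 0.00 for SCH772984. Of all tested genes 7.95% were called with the siRNAs and 28.0% with SCH772984. No set test was made, and nothing here sets a list apart from other genes of its size.

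Exchange factors load RAS with GTP. Of 8 listed, 6 were tested; RASGRP1 and RASGRP4 had at most 8 counts. With the siRNAs 1 rose and 0 fell (median 0.43), and with SCH772984 2 rose and 0 fell (median 0.34). The siRNA median takes in RASGRF1 at 0.70 (SE 0.73) and RASGRP3 at 0.55 (SE 0.38), neither of them called. Their means in the siRNA and nonspecific siRNA groups were only 0.178 to 0.889 CPM. RASGRP2 went the other way, at -0.10, and was not called either. SOS2, 1 of the pair of SOS exchange factors that act below receptor tyrosine kinases, had 58.9 and 55.2 CPM with siRNA 1 and 68.2 and 61.9 CPM with siRNA 2, against 39.7 and 47.5 CPM with the nonspecific siRNA. It had 48.4 and 54.3 CPM with SCH772984, against 40.4 and 34.4 CPM with DMSO. It was higher in all 6 treated libraries, by 0.48 with the siRNAs (SE 0.11, adjusted p = 0.0295) and 0.46 with SCH772984 (SE 0.13, adjusted p = 0.0226). RASGRP3, an exchange factor that responds to diacylglycerol, rose with SCH772984 by 2.23 (SE 0.36, adjusted p = 0.00162), at 3.77 and 3.48 CPM, against 0.616 and 0.911 CPM with DMSO.

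GAPs return RAS to its resting state. Of 11 listed, 8 were tested. With the siRNAs 0 were called by edgeR (median 0.11) and 0 by DESeq2, with 3 at an unadjusted p under 0.05 in edgeR, and with SCH772984 2 rose and 0 fell (median 0.10). RASAL2 had 127 and 150 CPM with SCH772984, against 87.8 and 76.5 CPM with DMSO, a rise of 0.75 (SE 0.13, adjusted p = 0.00209). RASA4 rose by 0.90 (SE 0.27, adjusted p = 0.0313), which is uncertain because it has a near-identical copy, RASA4B, and reads without a unique alignment were not counted. DESeq2 did not call it (adjusted p = 0.118). NF1, the neurofibromin gene and the best known RAS GAP, was at 0.06 with the siRNAs and -0.15 with SCH772984, not called in either.

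Membrane processing takes in the enzymes that lipidate, cut, methylate and depalmitoylate the tails shown above. All 16 listed genes found in the files were tested. With the siRNAs 0 rose and 3 fell (median -0.15), and with SCH772984 0 rose and 3 fell (median -0.17). LYPLA1, a thioesterase known to remove palmitate from RAS proteins, had 53.1 and 58.6 CPM with siRNA 1 and 88.9 and 94.8 CPM with siRNA 2, against 106 and 110 CPM with the nonspecific siRNA. It fell by 0.59 over both siRNAs (SE 0.11, adjusted p = 0.0134), with -0.95 for siRNA 1 (adjusted p = 0.00685) and -0.23 for siRNA 2 (adjusted p = 0.267). With SCH772984 it had 64.5 and 79.4 CPM, against 103 and 85.1 CPM with DMSO, and fell by 0.39 (SE 0.13, adjusted p = 0.0452). The LYPLA1 call with SCH772984 was lost with upper-quartile scaling (adjusted p = 0.0665), library totals (0.0640), a minimum of 5 CPM (0.0611) and only the groups compared (0.0534). LGALS1, a galectin that scaffolds HRAS, fell by 0.34 with the siRNAs (SE 0.08, adjusted p = 0.0289). ICMT, the methyltransferase that caps the CAAX cysteine, fell by 0.35 with SCH772984 (SE 0.10, adjusted p = 0.0243).

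The complex around SHOC2, with the scaffolds and the turnover machinery of RAS, had 12 tested genes. With the siRNAs 0 were called by edgeR (median 0.01) and 0 by DESeq2, with 2 at an unadjusted p under 0.05 in edgeR. SHOC2, the partner of MRAS, was at 0.21 (SE 0.16, adjusted p = 0.429) with the siRNAs and 0.15 (SE 0.19, adjusted p = 0.576) with SCH772984, so neither difference passed. With SCH772984 2 rose and 3 fell (median 0.07). KSR1, a scaffold of RAF, MEK and ERK, rose by 0.65 (SE 0.17, adjusted p = 0.0177), and CNKSR2, another scaffold, fell by 0.68 (SE 0.15, adjusted p = 0.00807). LZTR1, the adaptor that brings RAS proteins including MRAS to a ubiquitin ligase, rose by 0.46 (SE 0.12, adjusted p = 0.0192), while CUL3, the ligase's cullin, fell by 0.34 (SE 0.09, adjusted p = 0.0186). The siRNA response of LZTR1 minus its SCH772984 response was -0.61 (SE 0.16, adjusted p = 0.0481).

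Effectors other than RAF and PI3K had 15 tested genes. With the siRNAs 1 rose and 1 fell (median -0.11). RIN2 rose by 0.32 (SE 0.08, adjusted p = 0.0451) and RIN1 fell by 0.51 (SE 0.13, adjusted p = 0.0458). RIN1 was not called with DESeq2's size factors (adjusted p = 0.0545), upper-quartile scaling (0.0609), library totals (0.0709) or only the groups compared (0.0696), and RIN2 was not called in the last of these (0.0724). RIN1 and RIN2 both encode RAB5 exchange factors with a RAS-association domain. With SCH772984 3 rose and 3 fell (median 0.06). RALGDS, which passes the RAS signal to RAL, had 120 and 111 CPM with SCH772984, against 79.7 and 75.6 CPM with DMSO, and rose by 0.57 (SE 0.10, adjusted p = 0.00254). TIAM1, a RAC exchange factor, had 53.5 and 49.7 CPM with SCH772984, against 80.6 and 78.8 CPM with DMSO, and fell by 0.63 (SE 0.09, adjusted p = 0.00111). RASSF5 fell by 0.63 (SE 0.11, adjusted p = 0.00288), and RGL1, a relative of RALGDS, fell by 0.70 (SE 0.16, adjusted p = 0.0102). RGL1 went the other way with the siRNAs. It had 331 and 278 CPM with siRNA 1 and 444 and 381 CPM with siRNA 2, against 278 and 225 CPM with the nonspecific siRNA, with log2 differences of 0.28 (adjusted p = 0.402) for siRNA 1, 0.71 (adjusted p = 0.0302) for siRNA 2 and 0.50 (adjusted p = 0.0563) for their mean. The siRNA response minus the SCH772984 response was called for RGL1 at 1.19 (SE 0.21, adjusted p = 0.0121) and for RALGDS at -0.68 (SE 0.13, adjusted p = 0.0171).

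Among 24 tested relatives in the RAS subfamily, 1 rose and 2 fell with the siRNAs (median -0.08), and 3 rose and 4 fell with SCH772984 (median 0.00). GEM, a GTPase that restrains calcium channels, had 26.1 and 41.7 CPM with siRNA 1 and 24.8 and 41.6 CPM with siRNA 2, against 61.8 and 76.6 CPM with the nonspecific siRNA, and fell by 1.05 (SE 0.22, adjusted p = 0.0213). With SCH772984 it had 6.58 and 7.30 CPM, against 64.2 and 79.4 CPM with DMSO, and fell by 3.37 (SE 0.29, adjusted p = 4.15e-05). The siRNA response of GEM minus its SCH772984 response was 2.32 (SE 0.36, adjusted p = 0.00668). RHEBL1, a relative of the mTORC1 activator RHEB, fell by 0.72 with the siRNAs (SE 0.18, adjusted p = 0.0429) and fell by 1.68 with SCH772984 (SE 0.25, adjusted p = 0.00101). RERG, known as an estrogen-regulated growth inhibitor, rose by 0.88 with the siRNAs (SE 0.21, adjusted p = 0.0370) and by 1.56 with SCH772984 (SE 0.23, adjusted p = 0.00114). RASL11B rose with SCH772984 by 2.25 (SE 0.25, adjusted p = 0.000218), at 16.4 and 15.4 CPM, against 2.64 and 3.98 CPM with DMSO. With the siRNAs RASL11B had 2.04 to 3.77 CPM, against 2.69 and 2.76 CPM with the nonspecific siRNA, and its siRNA response minus its SCH772984 response was -2.10 (SE 0.35, adjusted p = 0.00843). RAP2A, a relative of RAP1, was called in neither comparison, at -0.40 with the siRNAs (adjusted p = 0.0516) and 0.23 with SCH772984 (adjusted p = 0.193), but the difference of these responses was -0.63 (SE 0.17, adjusted p = 0.0487).

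The firmness of these list genes differed between the comparisons. Of the 9 list genes that the rule took for the siRNAs, 0 kept their call when each of the 10 libraries was left out in turn. Of the 19 taken for SCH772984, 9 kept it throughout, namely RASGRP3, RASAL2, TIAM1, RALGDS, RASSF5, GEM, RASL11B, RHEBL1 and RERG. Fitting only the groups compared lost 8 of the 9 calls for the siRNAs, and 3 of the 19 for SCH772984. Scaling by library totals lost 4 of the 9 and 1 of the 19.

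**Figure D4:**
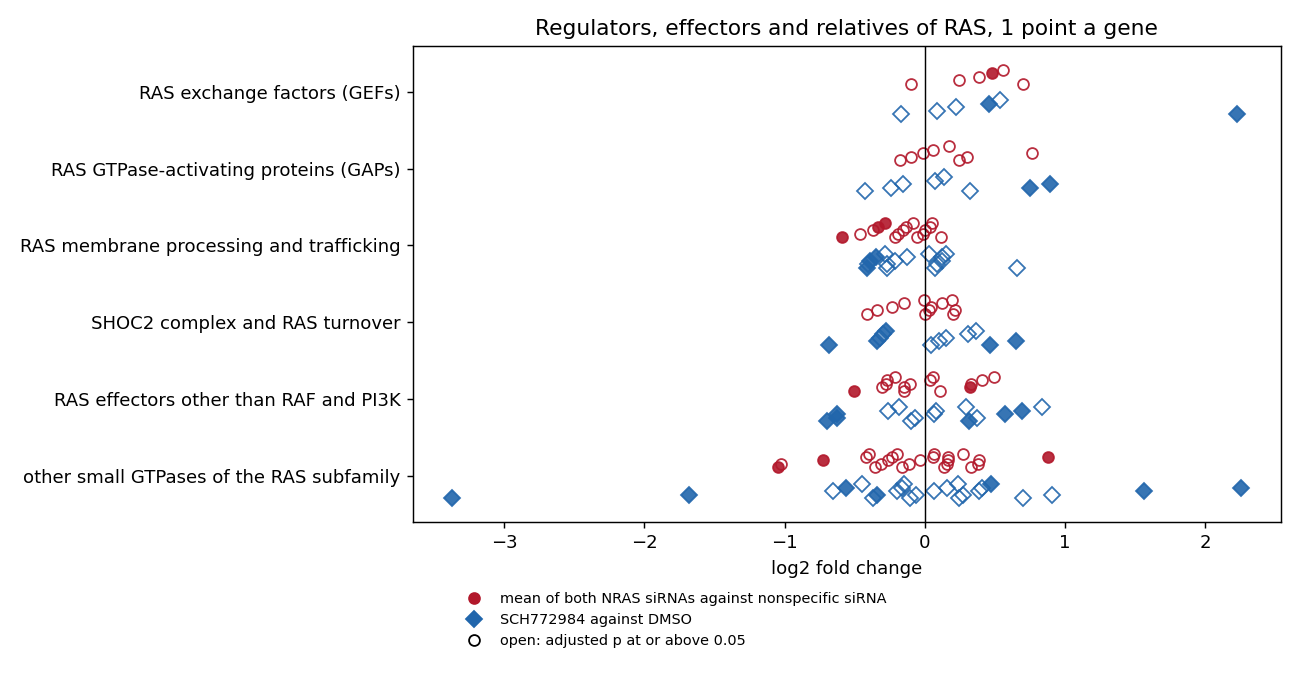
Log2 fold changes of the tested genes of 6 lists of RAS regulators, effectors and relatives, 1 point a gene, for the mean of both NRAS siRNAs against the nonspecific siRNA (circles) and SCH772984 against DMSO (diamonds); filled points have an adjusted p under 0.05. The points farthest from 0 are those of SCH772984, GEM at -3.37 and RASL11B at 2.25.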

How the data were processed

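RNA of RD cells was isolated with the RNeasy kit and sequenced as TruSeq stranded mRNA libraries, per the labels' protocols. The deposited values are whole-number read counts per gene, not normalised. Alignment with TopHat2 and counting with HTSeq, beside bcl2fastq and SAMtools, are named in the submitters' processing notes, as are GRCh37 and hg19. Tool versions, gene annotation and strand setting were not given in the sources used. Per-sample files and the series table held identical counts for all 10 libraries. Reads without a gene, including those without a unique alignment (27.0 to 28.9%), made up 38.3 to 39.4% and were left out. Groups and replicate numbers came from the sample titles. SCH772984 is the spelling used where the labels differ.

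The quasi-likelihood test of edgeR 4.0.16 (R 4.3.3) was run on counts scaled by TMM, for genes kept by filterByExpr with its minimum count of 10. The 10 libraries were fitted together, leaving 5 residual degrees of freedom, and p-values were adjusted by Benjamini-Hochberg over 14761 genes at a threshold of 0.05. The siRNA response is the mean of both siRNAs. SEs and 95% intervals come from the same fit. CPM are TMM-scaled. At this depth 3 counts equal 0.0975 to 0.129 CPM, and the lowest member count was 359. Pearson's r between replicates was 0.993 to 0.996 on log2 CPM, and they differed beyond sampling noise, at 13.2 to 25.5 times the degrees of freedom of a chi-square comparison, so each library counted as 1 replicate. Lengths, coding sequences and identities were taken from GENCODE release 29, promoters and neighbouring genes from RefSeq tables for GRCh38.p14, with Python 3.11.15, pandas 2.3.3 and Biopython 1.88. RRAS had no promoter entry. The files' own build was not used for positions.

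The members, the lists and the rules were chosen with earlier results of these data known. The genes named are the 5 members, up to 4 called genes with the smallest adjusted p from each list and comparison, the 3 genes most alike to each member, and the nearest tested neighbours. Some genes that this rule takes are not reported here. SHOC2, NF1 and the called differences between responses were added after their values were seen. The test was checked on counts simulated with the same spread setting for all genes and no effect of the replicate number. That check therefore does not cover such an effect. Alternatives were other scalings, other filters, DESeq2 1.42.0, only the groups compared, a replicate block, each library left out and another length model.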

Additional observations from a re-analysis of the deposited data

Results flagged for a closer look

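NRAS itself responded differently to the knockdown and to the drug. Its siRNA response minus its SCH772984 response was -2.17 on the log2 scale (SE 0.15, edgeR adjusted p = 0.000122), with all 4 knockdown libraries below both nonspecific siRNA libraries and overlapping libraries for SCH772984 and DMSO. NRAS is the target of the siRNAs, so the difference checks the labels. Groups of 2 libraries are too small for a test of outlying samples.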

How the results depend on the processing

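The fall of NRAS held in every alternative and leave-one-out fit run, at -2.35 to -2.07 for siRNA 1, -2.44 to -2.15 for siRNA 2 and -2.40 to -2.11 for their mean. Of 275 alternative values for the members' log2 fold changes 254 kept direction and call, 21 changed call and 0 reversed. HRAS with SCH772984 lost its call, leaving 1 member called, with DESeq2's size factors (adjusted p = 0.0601), upper-quartile scaling (0.0737), library totals (0.0697) and a minimum of 5 CPM (0.0638). For the mean of both siRNAs library totals gave 2 members, adding MRAS (0.0491), and 3 were called with no filter (HRAS 0.0186, MRAS 0.0458), with DESeq2 (0.0225, 0.0274) and with the replicate block (0.0111, 0.0300). For siRNA 2, only the groups compared gave 1 member, without MRAS (0.0926), and HRAS was added by no filter (0.0184), DESeq2 (0.0185) and the block (0.0116). For the difference of responses 2 members, with RRAS, were called with no filter (0.0303), DESeq2 (0.0347) and the block (0.0230). RRAS with SCH772984 passed with no filter (0.0376), only the groups compared (0.0293) and the block (0.0239).

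Counts of all called genes, in the order siRNA 1, siRNA 2 and their mean, were 305, 949 and 1174, and became 785, 1690 and 1765 with no filter, 45, 225 and 425 with only the groups compared, and 1280, 2815 and 2846 with the replicate block, while DESeq2 gave 763 and 1651 for the single siRNAs. Between the siRNAs 63 genes became 144 with DESeq2, 28 with only the groups compared and 120 with the block. Between nonspecific siRNA and DMSO 56 became 91 with library totals, 283 with no filter, 370 with DESeq2, 12 with only the groups compared and 446 with the block. The difference of responses had 1078, and 2379 with the block. The difference was not fitted on fewer groups, since it uses all. In lists for the siRNAs, effectors had 1 call with each other scaling and processing 1 with library totals; DESeq2 gave processing 5, effectors 4 and relatives 6; only the groups compared gave exchange factors 0, processing 1, effectors 0 and relatives 0; and the block gave GAPs 2, processing 5, SHOC2 complex 1, effectors 4 and relatives 8. With SCH772984 exchange factors and GAPs each had 1 with a minimum of 5 CPM, which left RASGRP3 and RASA4 out of the fit. GAPs had 1 with DESeq2 and with only the groups compared, where processing had 1. The block gave processing 5 and effectors 10. The cause of the other changes was not tested. The labels do not say what a replicate number marks. Same-numbered deviations from the group means correlated at -0.0896 to 0.679, over 0.1 in 9 of 10 group pairs, which hints at an effect of the number in the data, but 1 pair falls short and the design gives no pairing, so the block was kept as an alternative.

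Leaving out 1 library gave 28 to 374 genes for siRNA 1, 53 to 1144 for siRNA 2, 131 to 1491 for their mean, 1875 to 4392 for SCH772984, 6 to 54 between the siRNAs, 6 to 31 between controls and 343 to 915 for the difference. Called members were 1 to 2 for siRNA 2, their mean and the difference, and 0 to 2 for SCH772984. List calls for the siRNAs were 0 to 1 exchange factors, 0 to 4 processing, 0 to 2 effectors and 0 to 4 relatives, and for SCH772984 1 to 2 exchange factors, 1 to 2 GAPs, 0 to 3 processing, 0 to 6 SHOC2 complex, 3 to 6 effectors and 5 to 9 relatives. Uncalled values crossed 0 for RRAS2 (siRNA 1 -0.14 to 0.20, mean -0.15 to 0.0201, SCH772984 -0.32 to 0.13, controls -0.16 to 0.24, difference -0.17 to 0.26), RRAS (siRNA 2 -0.41 to 0.12, mean -0.50 to 0.03), NRAS (SCH772984 -0.23 to 0.0172), HRAS (controls -0.29 to 0.12, difference -0.25 to 0.17), MRAS (controls -0.0046 to 0.16), SCAF1 (siRNAs -0.0706 to 0.16) and LRRC56 (SCH772984 -0.15 to 0.85).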
